A study of Mus musculus with 17 samples.

Results

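Macrophages and granulocytes sorted from the spleens of wild-type mice were compared, with 3 arrays per cell type among the 17 arrays of the series. The comparison used the 3 arrays of macrophage pools 1 to 3 and the 3 arrays of granulocyte pools 1 to 3, and all probe sets with 1 gene symbol, which were 28898 of 45037 probe sets and measured 17097 genes. The macrophages were CD11c-, CD11b+ and MCSFR+ (M-CSF receptor) cells. Macrophages is the labels' name for this gate, which names no marker that separates macrophages from monocytes. The granulocytes were CD11c-, CD11b+, Ly6C+ and MCSFR- cells. Each pool held spleen cells of 5 wild-type mice aged 6 to 10 weeks, sorted by flow cytometry straight into lysis buffer. No mouse of either group carried an engineered allele, per the labels. The labels do not say whether macrophage and granulocyte pools of the same number came from the same mice. Wild-type myelo-dendritic progenitors (MDPs) from bone marrow (3 pools of 5 mice) were lineage-, Sca1-, CD127-, CD117+ and MCSFR+ cells. They give a progenitor level beside the spleen groups, without a test. Their arrays also entered the shared estimate of spread and the choice of probe sets. So did the arrays of the IRF8 knockout-labelled MDPs and of the VENUS-positive and VENUS-negative reporter MDPs. According to the design text, the mature populations served to sort progenitor gene changes into macrophage, granulocyte and dendritic cell signatures.

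Monocytes, macrophages and neutrophil granulocytes descend from shared myeloid progenitors. Neutrophils fill their granules in the bone marrow in sequence, with proteases and peroxidase first, lactoferrin and lipocalin next and gelatinase last, and leave the marrow as short-lived cells. Monocytes and macrophages depend on the M-CSF receptor, live longer, take up particles and present antigen on MHC class II. The spleen also holds a store of monocytes beside its resident red pulp and marginal zone macrophages, which recycle iron and filter blood.

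The genes behind the sort gate were read first. Csf1r, which encodes the M-CSF receptor, had log2 levels of 9.70, 9.77 and 9.93 in macrophage pools 1 to 3 and of 7.16, 8.19 and 8.56 in granulocyte pools 1 to 3. The groups did not overlap, and the macrophage mean was 3.56-fold higher (difference 1.83 ± 0.27 (SE) on the log2 scale, limma adjusted p = 9.46e-05), although the granulocyte gate was MCSFR- and all 3 granulocyte pools had levels well above their array medians, of which the highest was 4.48. Itgam, which encodes CD11b and was required in both gates, was 2.35-fold higher in granulocytes (log2 means 8.11 ± 0.14 against 6.88 ± 0.22, SD, n = 3 each, adjusted p = 0.00129). Itgax, which encodes CD11c and marked cells to be left out of both gates, had levels of 8.15, 8.57 and 8.41 in macrophages and of 6.94, 8.37 and 8.02 in granulocytes, which overlapped (difference 0.60 ± 0.30, adjusted p = 0.142). Ly6c1 had levels of 11.03, 11.39 and 11.48 in macrophages against 11.03, 9.07 and 10.06 in granulocytes, so that Ly6C mRNA was not higher in the gate that was selected on Ly6C protein. Its difference of 1.25 ± 0.37 passed the threshold (adjusted p = 0.0187), the arrays overlapped, and with only the 6 spleen arrays in the fit it did not pass (adjusted p = 0.0771). The probe set of Ly6c1 may also read its near-identical neighbour Ly6c2, and Ly6c2 and Ly6g were not analysed here.

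Of 17097 genes, 5337 differed between the cell types at a limma adjusted p under 0.05 (31.2%); these are the genes called below. Of all genes, 3142 were called higher in macrophages (18.4%) and 2195 higher in granulocytes (12.8%). A difference of at least 2-fold was called for 3202 genes (18.7%), 2245 of them higher in macrophages (13.1%) and 957 higher in granulocytes (5.6%). The 3 arrays of one cell type lay wholly above those of the other for 8362 genes (48.9%), and 5185 genes (30.3%) were both called and free of overlap. The median difference over all genes was -0.09 on the log2 scale, macrophages minus granulocytes, which is the direction of every signed difference here. A fold is given only where the lower group's mean was at least 4.48, the highest of the 6 array medians, because a lower level was not told apart from background here. The samples are whole sorted populations, so fewer cells of a type and less RNA per cell cannot be told apart. The p-values measure each difference against the spread between pools, estimated over all 17 arrays. Of the 11 residual degrees of freedom, 4 came from the 6 spleen arrays and the rest from the MDP arrays.

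**Figure D1:**
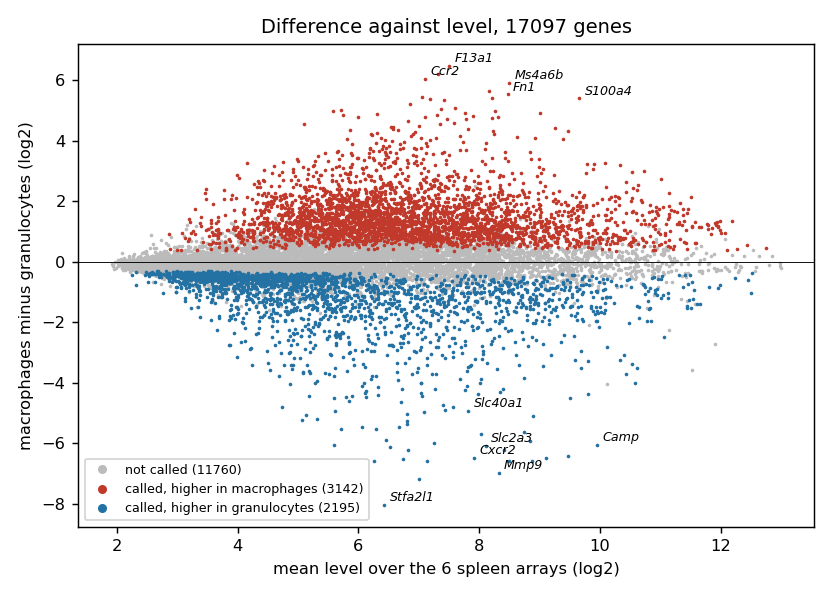
Difference in log2 level (macrophages minus granulocytes, vertical axis) against the mean log2 level over the 6 spleen arrays (horizontal axis) for 17097 genes, with 1 point per gene. Red points are the 3142 genes called higher in macrophages, blue points the 2195 called higher in granulocytes and grey points the rest; the largest differences reach 6.48 for F13a1 and -8.04 for Stfa2l1.

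The granulocyte pools differed more among themselves than the macrophage pools did. Pearson correlations between pools over all 45037 probe sets were 0.990 to 0.992 for macrophages and 0.959 to 0.968 for granulocytes. The median SD of a gene over 3 pools was 0.133 in macrophages and 0.251 in granulocytes, and the SD was larger in granulocytes for 12966 genes (75.8%). An SD over 1 log2 unit was found for 20 genes in macrophages and for 421 genes in granulocytes. The upper quartile of the array values was 6.27, 6.30 and 6.28 in macrophages and 6.15, 5.96 and 6.01 in granulocytes, so the granulocyte arrays had a narrower spread of values. The part of these differences in the results was not tested.

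Of the 15 genes with the largest differences towards granulocytes, 6 were on the list of secondary and tertiary granule genes: Mmp9, Mgam, Lcn2, Chil1, Ltf and Ngp. Stfa2l1, a stefin A family cysteine protease inhibitor gene, had levels of 2.32, 2.55 and 2.35 in macrophages and of 10.33, 10.46 and 10.55 in granulocytes (difference -8.04 ± 0.12, adjusted p = 3.59e-15). Mmp9, gelatinase B of the tertiary granules, had levels of 5.15, 4.84 and 4.50 in macrophages and of 11.92, 11.82 and 11.69 in granulocytes, a 126-fold difference (adjusted p = 1.73e-10). Cxcr2, the chemokine receptor that guides neutrophils out of the marrow, had levels of 4.83, 4.73 and 4.44 against 10.91, 11.27 and 11.28, an 89.6-fold difference (adjusted p = 6.98e-10). For these 3 genes every granulocyte pool lay far above every macrophage pool and the pools of a group lay close together.

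The other genes among the 15 largest differences in this direction had differences between -7.20 and -6.08. Il1f9 (also known as Il36g), a cytokine of the interleukin-1 family, had means of 3.41 ± 0.44 in macrophages and 10.61 ± 0.46 in granulocytes (SD, n = 3). Nlrp12, a NOD-like receptor of myeloid cells, had means of 3.71 ± 0.32 and 9.95 ± 0.45. Hdc, histidine decarboxylase, which makes histamine, was 95.7-fold higher in granulocytes (means 5.20 ± 0.45 and 11.78 ± 0.13). The glucose transporter gene Slc2a3 was 67.8-fold higher and the retroviral-like protease gene Asprv1 74.4-fold higher. H2-Q10 read 10.00 ± 0.27 in granulocytes against 3.48 ± 0.19 in macrophages, but class I genes of this region are near-identical in sequence, so which of them the probe set read is uncertain; the same holds within the stefin A, Mrgpra and Ms4a6 families.

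Of the 15 genes with the largest differences towards macrophages, 6 were on the list of monocyte and macrophage genes: F13a1, Ccr2, Ms4a6b, Ms4a6c, Fn1 and Fcgr1. F13a1, the A chain of coagulation factor XIII, had a mean of 10.74 ± 0.27 (SD, n = 3) in macrophages, with a lowest pool of 10.46, and levels of 4.19, 4.29 and 4.30 in granulocytes (difference 6.48 ± 0.16, adjusted p = 3.65e-12). Ccr2, the receptor that brings monocytes out of the marrow, had levels of 10.09, 10.28 and 10.00 against 4.23, 3.95 and 4.04 (difference 6.05 ± 0.24, adjusted p = 3.03e-10). Ms4a6b, of the MS4A membrane protein family, had levels of 11.49, 11.43 and 11.45 against 5.48, 5.30 and 5.85, a 60.2-fold difference. The granulocyte levels of F13a1 and Ccr2 lay below the array medians in all 3 pools. Fn1, fibronectin, was 46.7-fold higher in macrophages, and S100a4, a calcium-binding protein of the S100 family, 42.6-fold higher. Fcgr1, the high-affinity Fc receptor for IgG, had means of 9.78 ± 0.12 and 4.32 ± 0.62 (SD, n = 3).

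The remaining genes among the 15 largest in this direction had differences from 5.02 (Scpep1, a serine carboxypeptidase) to 6.20 (Ms4a6d). Klf4, a transcription factor needed for inflammatory monocytes, was 33-fold higher in macrophages, with granulocyte levels of 4.37, 4.34 and 5.84. The phosphatase gene Ptpro, the stress-response gene Nupr1 and the membrane protein gene Tmem176b were 42.3-fold, 42.4-fold and 40.7-fold higher. Probe sets of a gene did not always give the same size: a second Ms4a6c probe set gave a difference of 1.96 where the main one gave 5.66, and 1 of the other Ms4a6d probe sets gave -0.02. Of 1527 genes with 2 or more called probe sets, 25 had calls in opposite directions, and none of these was among the 181 genes named by rule.

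**Figure D2:**
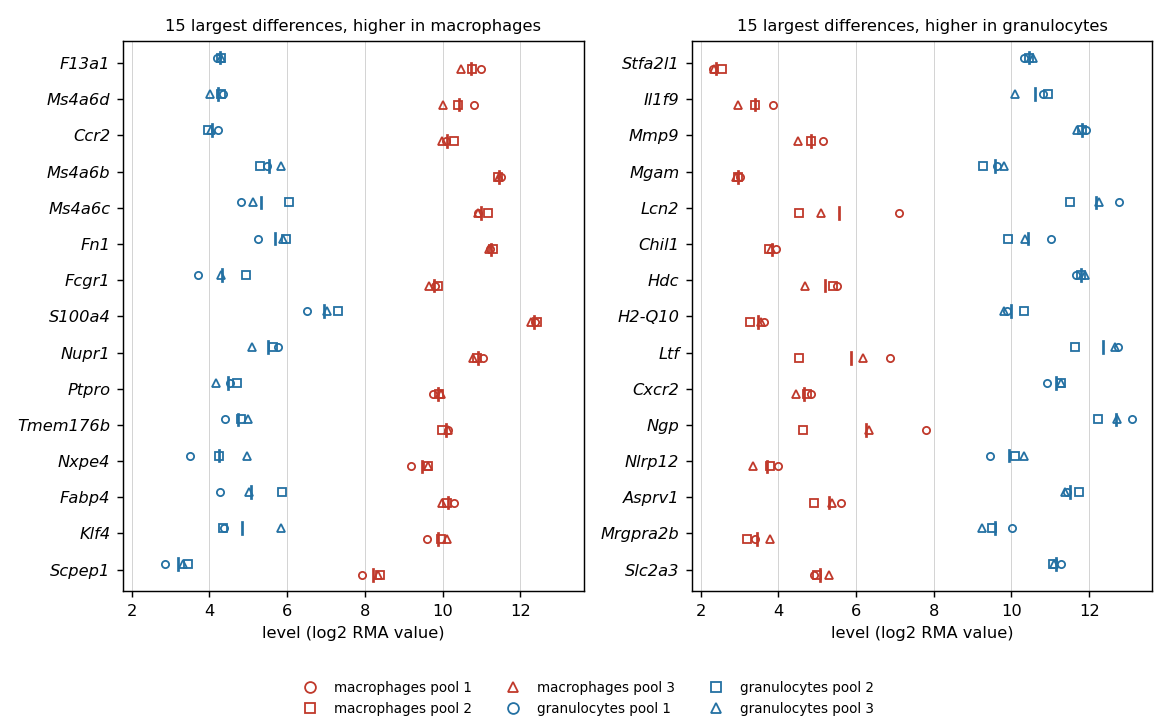
Log2 levels (horizontal axis) in each of the 3 macrophage pools (red) and 3 granulocyte pools (blue) for the 15 genes with the largest called difference in each direction; symbols mark pools 1 to 3 and vertical bars the group means. No gene has overlapping groups, and Lcn2, Ltf and Ngp scatter most among the macrophage pools.

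Promoter sequence was read for the genes at the top of both lists, because PU.1, C/EBP and IRF factors are the best known regulators of granulocyte and monocyte genes. The 250 bases before each gene's start were taken from the RefSeq promoter table (GRCm38.p6) for 13514 of the 17097 genes. For the 2501 genes with several entries only the first was used, so other starts were not searched. Searched on both strands were GNGGAAGT (a PU.1 type match), TTGCNNAA (a C/EBP type match) and an ETS-IRF composite (GGAA, any pair of bases, then GAAA), which can share its GGAA with a PU.1 type match. Shown first are the top 2 granulocyte genes that held a match, with the match in capitals. In Stfa2l1 the match is of the PU.1 type, on the opposite strand, 177 bases before the start (chr16:36156561-36156810, plus strand). In Lcn2 the match is of the C/EBP type, 216 bases before the start (chr2:32387740-32387989, minus strand). None of the 12 of the 15 leading macrophage genes with an entry held any of the 3 matches, so F13a1 (chr13:37050245-37050494, minus strand) and Ccr2 (chr9:124101933-124102182, plus strand) are shown beside them without capitals, chosen after that result was seen.
Stfa2l1: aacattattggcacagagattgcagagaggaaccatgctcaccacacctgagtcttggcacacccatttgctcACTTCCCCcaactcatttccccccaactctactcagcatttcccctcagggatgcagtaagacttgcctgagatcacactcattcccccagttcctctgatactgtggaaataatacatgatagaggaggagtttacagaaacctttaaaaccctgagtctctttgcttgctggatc
Lcn2: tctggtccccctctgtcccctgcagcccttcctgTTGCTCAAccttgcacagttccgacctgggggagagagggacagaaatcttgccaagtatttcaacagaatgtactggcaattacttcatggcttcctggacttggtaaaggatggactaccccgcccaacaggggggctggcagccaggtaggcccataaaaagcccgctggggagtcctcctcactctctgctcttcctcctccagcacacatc
F13a1: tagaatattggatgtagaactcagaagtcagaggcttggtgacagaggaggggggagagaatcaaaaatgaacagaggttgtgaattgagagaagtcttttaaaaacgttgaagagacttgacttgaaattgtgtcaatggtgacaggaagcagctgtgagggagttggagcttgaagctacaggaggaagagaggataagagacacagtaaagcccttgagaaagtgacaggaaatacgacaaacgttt
Ccr2: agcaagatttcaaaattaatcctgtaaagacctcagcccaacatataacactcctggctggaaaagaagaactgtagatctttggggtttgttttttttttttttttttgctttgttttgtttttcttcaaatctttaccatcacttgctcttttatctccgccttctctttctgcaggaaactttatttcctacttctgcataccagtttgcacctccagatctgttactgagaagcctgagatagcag

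A PU.1 type match stood in 6.56% of all promoters, in 8.46% of those of genes called higher in macrophages and in 7.98% of those called higher in granulocytes. A C/EBP type match stood in 8.07%, 7.29% and 8.74% in the same order, and an ETS-IRF type match in 2.1%, 2.11% and 1.88%. Among the 13 of the 15 leading granulocyte genes with an entry, 3 held a PU.1 type and 4 a C/EBP type match. A match is a run of letters and was not measured as a binding site.

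Genes of monocytes and macrophages were mostly higher in the macrophage gate. Of 29 measured genes of this list, 20 were called higher in macrophages and 2 higher in granulocytes, with a median difference of 2.33 against -0.09 over all genes. Cx3cr1, the fractalkine receptor, had levels of 8.37, 8.87 and 8.89 in macrophages and of 5.25, 5.21 and 5.17 in granulocytes. Ly86, encoding MD-1, was 31.4-fold higher and the lysosomal glycoprotein gene Cd68 was 6.02-fold higher. The exceptions were Ccr1, a chemokine receptor that neutrophils also carry, which was 16.1-fold higher in granulocytes (levels 5.52, 5.64 and 3.94 against 9.12, 9.46 and 8.54), and Cd14, the lipopolysaccharide co-receptor, which was 3.28-fold higher there.

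Genes known from Ly6C-low, patrolling monocytes were among those higher in the macrophage gate. Of 16 measured, 13 were called higher in macrophages and 0 higher in granulocytes (median difference 2.15). Nr4a1, the nuclear receptor these monocytes depend on, had levels of 8.82, 9.18 and 9.27 in macrophages and of 5.55, 6.29 and 6.72 in granulocytes (7.49-fold, adjusted p = 5.21e-07). Ace, angiotensin-converting enzyme, was 12.2-fold higher, the fatty acid carrier gene Fabp4 33.7-fold higher and the adhesion receptor gene Adgre4 20.8-fold higher. Other Fabp4 probe sets gave differences of 3.94 and 0.26 where the main one gave 5.07, and that of 0.26 was not called. Macrophage pool 1 had the lowest level of Nr4a1, Ace and Adgre4 among the macrophage pools. The macrophage arrays carried high levels both of Ccr2 and Ly6c1, known from Ly6C-high monocytes, and of genes known from Ly6C-low monocytes. The part of monocytes in the macrophage pools was not tested.

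Genes of the resident macrophages of red pulp and marginal zone gave a mixed picture. Of 18 measured, 5 were called higher in macrophages and 2 higher in granulocytes (18.4% and 12.8% of all genes), with a median difference of 0.11. The count towards granulocytes is near the share of all genes. Hpgd, which degrades prostaglandins, was 25.5-fold higher in macrophages. Siglec1, the marginal zone sialoadhesin, had levels of 6.00, 7.38 and 7.06 in macrophages against 3.66, 3.74 and 4.41 in granulocytes, and Spic, the transcription factor of red pulp macrophages, had levels of 5.39, 5.53 and 5.43 against 3.65, 3.74 and 3.54. Both genes were free of overlap. Other Siglec1 probe sets gave differences of 1.44 and -0.26 where the main one gave 2.88, and that of -0.26 was not called.

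In macrophage pools 1 to 3, 12, 10 and 12 of the 18 genes were above the array median. Vcam1 had levels of 4.07, 4.08 and 4.23, Timd4 of 3.95, 3.35 and 3.57, and C1qa of 4.48, 4.27 and 4.17, against a lowest macrophage array median of 4.37. The other C1q chains were higher, with 6.31, 4.52 and 4.54 for C1qb and 6.74, 5.87 and 5.83 for C1qc. These 5 genes were picked after their values were seen. The list's mean level over its 18 members was 5.59, 5.47 and 5.58 in macrophage pools 1 to 3 and 4.96, 5.48 and 5.20 in granulocyte pools. Slc40a1, ferroportin, the iron exporter of red pulp macrophages, was instead higher in granulocytes, with levels of 5.19, 5.26 and 5.63 in macrophages and of 10.16, 10.55 and 10.12 in granulocytes (30.4-fold, adjusted p = 1.55e-05). A second Slc40a1 probe set gave a difference of -5.27.

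Conventional dendritic cell genes also stood higher in the macrophage gate, although CD11c+ cells were gated out. Of 10 measured markers, 7 were called higher in macrophages and 0 higher in granulocytes (median difference 2.66), and the mean level of the 10 markers was 6.66 to 6.91 in macrophage pools and 4.17 to 4.65 in granulocyte pools. Cd209a, a DC-SIGN family lectin, had levels of 8.57, 8.82 and 8.86 against 3.82, 3.87 and 3.88. Flt3, the receptor for the dendritic cell growth factor FLT3 ligand, had a mean of 7.45 ± 0.42 in macrophages (SD, n = 3). Xcr1 and Itgae, which mark cross-presenting dendritic cells, had means of 3.11 and 3.93 in macrophages, below the array medians. The part of these markers in the results on antigen presentation was not tested.

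**Figure D3:**
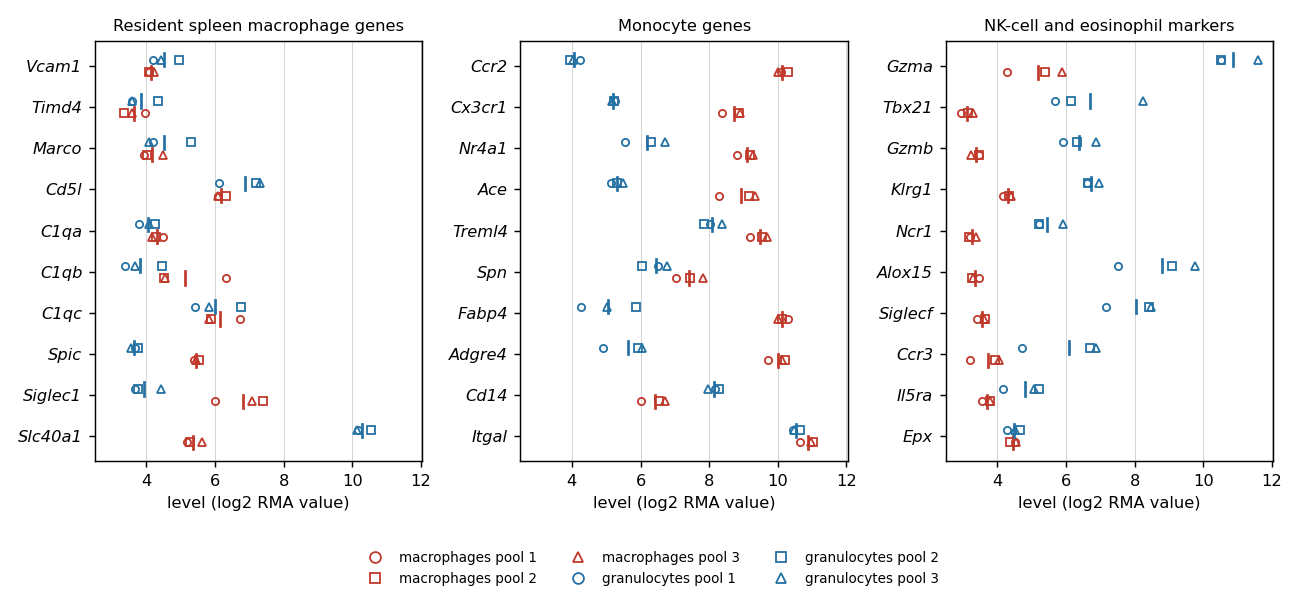
Log2 levels (horizontal axis) of 10 resident spleen macrophage genes, 10 monocyte genes and 10 markers of NK cells and eosinophils in each macrophage pool (red) and granulocyte pool (blue); symbols mark the pools and vertical bars the group means. Vcam1, Timd4 and Marco are low in both groups, Slc40a1 stands high in granulocytes only, and Gzma, Tbx21, Alox15 and Siglecf stand higher in all 3 granulocyte pools.

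Genes of antigen presentation on MHC class II formed the list with the largest median difference towards macrophages, 3.04, with 13 of 14 measured members called higher there and 1 higher in granulocytes. H2-DMa and H2-DMb1, the chains of the molecule that loads peptide on class II, had differences of 4.80 ± 0.25 and 4.22 ± 0.32. Ifi30, the thiol reductase GILT that unfolds antigen in lysosomes, was 20-fold higher (levels 11.79, 11.62 and 11.46 against 7.03, 7.57 and 7.30). The class II chain gene H2-Eb1 was 9.4-fold higher, with levels of 7.59, 8.59 and 8.30 in granulocytes, where pool 1 was lowest. Without granulocyte pool 1 the median of the list was 2.64. Cd80, a costimulatory ligand, was the member called in the other direction, with means of 4.82 ± 0.25 in macrophages and 6.39 ± 0.32 in granulocytes (SD, n = 3).

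Lysosome and phagocytosis genes were also mostly higher in macrophages, with 15 of 21 called higher in macrophages and 1 higher in granulocytes (median 1.27). Ctsc, cathepsin C, which activates granule proteases, had levels of 11.03, 11.02 and 10.88 in macrophages against 7.07, 6.96 and 6.60 (17.1-fold, adjusted p = 9.5e-08). The scavenger receptor gene Cd36 and the legumain gene Lgmn were also called higher, by 3.53 and 2.72 on the log2 scale. Ctsd, cathepsin D, was the exception, 4.43-fold higher in granulocytes. Among 18 complement and Fc receptor genes, 4 were called higher in macrophages and 2 higher in granulocytes (median 0.05), shares near those of all genes (18.4% and 12.8%). Fcgr2b, the inhibitory Fc receptor, was 8.79-fold higher in macrophages, and the neonatal Fc receptor gene Fcgrt 3.06-fold higher. Fcgr3 and Fcgr4, activating Fc receptors of both cell types, had differences of -0.34 ± 0.26 and -0.33 ± 0.29 that did not pass the threshold (adjusted p = 0.349 and 0.414).

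Granule genes were higher in granulocytes, with a larger median for the later granules. Of 23 measured genes of secondary and tertiary granules, 19 were called higher in granulocytes and 0 higher in macrophages (1 with only the 6 spleen arrays in the fit), and the median difference was -4.0. Lcn2, lipocalin 2, which binds bacterial siderophores, had levels of 7.10, 4.53 and 5.09 in macrophages and of 12.78, 11.51 and 12.25 in granulocytes (97.6-fold, adjusted p = 6.98e-05). Ltf, lactoferrin, had levels of 6.87, 4.53 and 6.17 against 12.74, 11.62 and 12.67, and the neutrophil granule protein gene Ngp of 7.81, 4.62 and 6.34 against 13.09, 12.23 and 12.73. In all 3 genes macrophage pool 1 was highest and pool 2 lowest among the macrophage pools, and granulocyte pool 2 was the lowest of the granulocyte pools. Chil1 and Mgam, in contrast, lay below the array medians in every macrophage pool. Without granulocyte pool 1 the median of the list was -3.37.

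Primary granule genes, made earliest, were higher in granulocytes by less. Of 11 measured, 9 were called higher in granulocytes and 1, Ctsc, higher in macrophages, with a median of -2.24 that became -1.78 without granulocyte pool 1. Mpo, myeloperoxidase, had levels of 5.82, 5.53 and 7.49 in macrophages and of 9.09, 7.48 and 9.86 in granulocytes, so that the groups overlapped at macrophage pool 3 and granulocyte pool 2 (5.78-fold, adjusted p = 0.00136). Elane, neutrophil elastase, had levels of 8.02, 5.67 and 7.15 in granulocytes. Fcnb, ficolin B, had 11.16, 8.27 and 10.49 in granulocytes against 5.87, 4.53 and 5.10 in macrophages. Granulocyte pool 2 had the lowest level of all 3 genes. In wild-type MDPs the mean levels of Mpo and Elane were 12.66 and 10.29, above those of both spleen groups. Fcnb, with a granulocyte mean of 9.97, had a lower one of 6.27 ± 3.10 in the MDPs (SD, n = 3). Lcn2 and Ltf had means of 4.81 ± 2.53 and 5.64 ± 2.61 there (SD, n = 3), so their MDP levels spread widely. The later granule list averaged 5.21, 5.22 and 7.36 over MDP pools 1 to 3, highest in pool 3.

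The list of calprotectin and stefin A genes also holds other S100 genes. Of its 8 measured members, 3 were called higher in granulocytes, namely Stfa2l1, Stfa3 and S100a11. The 2 called higher in macrophages, S100a4 and S100a10, are neither calprotectin nor stefin A genes (list median -1.87). S100a8 and S100a9, the subunits of calprotectin, are described here although the threshold was missed. S100a8 had levels of 10.78, 8.69 and 9.70 in macrophages and of 13.11, 13.37 and 13.47 in granulocytes (difference -3.59 ± 1.37, adjusted p = 0.0602). S100a9 had levels of 11.46, 9.79 and 10.38 against 13.02, 13.36 and 13.42 (difference -2.72 ± 1.27, adjusted p = 0.12). The groups did not overlap for either gene. With only the 6 spleen arrays in the fit both passed (SE 0.47 and 0.39, adjusted p = 0.00138 and 0.00214). The main fit also takes in the spread between MDP pools. The list's mean level was 6.36, 5.92 and 8.65 in wild-type MDP pools 1 to 3. The granulocyte values of both genes lie near the highest value of the granulocyte arrays, 13.28 to 13.47. S100a10 was 8.07-fold higher in macrophages and S100a11 2.04-fold higher in granulocytes.

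Receptors and trafficking genes of neutrophils followed, with 16 of 23 called higher in granulocytes, 1 higher in macrophages and a median of -2.23. Il1r2, the decoy receptor for interleukin-1, had levels of 5.46, 3.74 and 3.56 in macrophages and of 10.35, 10.20 and 10.16 in granulocytes. Csf3r, the G-CSF receptor, was 9.73-fold higher in granulocytes, and the C-type lectin gene Clec4d 13.1-fold higher. Itga4, the alpha4 integrin chain, was the member called higher in macrophages (2.68-fold, levels 10.11, 10.29 and 10.28 against 8.46, 8.98 and 8.98). C5ar1, the C5a receptor, had a difference of -2.26 ± 0.89 without overlap that was not called (adjusted p = 0.0683). It passed with only the 6 spleen arrays in the fit (SE 0.19, adjusted p = 0.0002). Its SD over the wild-type MDP pools, which entered the main fit, was 1.92.

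Of 29 chemokine and cytokine genes, 5 were called higher in macrophages and 11 higher in granulocytes (18.4% and 12.8% of all genes, median -0.38). The count towards macrophages is near the share of all genes. Il1b had levels of 8.74, 8.87 and 8.14 in macrophages and of 12.48, 12.74 and 12.53 in granulocytes, a 16-fold difference (adjusted p = 4.29e-09). Csf1, the ligand of the M-CSF receptor, was 11.4-fold higher in granulocytes (levels 5.25, 5.01 and 5.43 against 8.16, 9.56 and 8.50). Ccl5 was 14.7-fold higher there, with the highest level, 10.65, in pool 3. Cxcl2, a ligand of CXCR2, had levels of 3.98, 5.96 and 6.76 in granulocytes, which spread widely. On the macrophage side, Ccl9 was 16.5-fold higher, Tgfb1 3.53-fold higher and Cxcl10 3.56-fold higher, and Il18 had means of 7.35 ± 0.33 and 4.38 ± 0.36 (SD, n = 3).

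**Figure D4:**
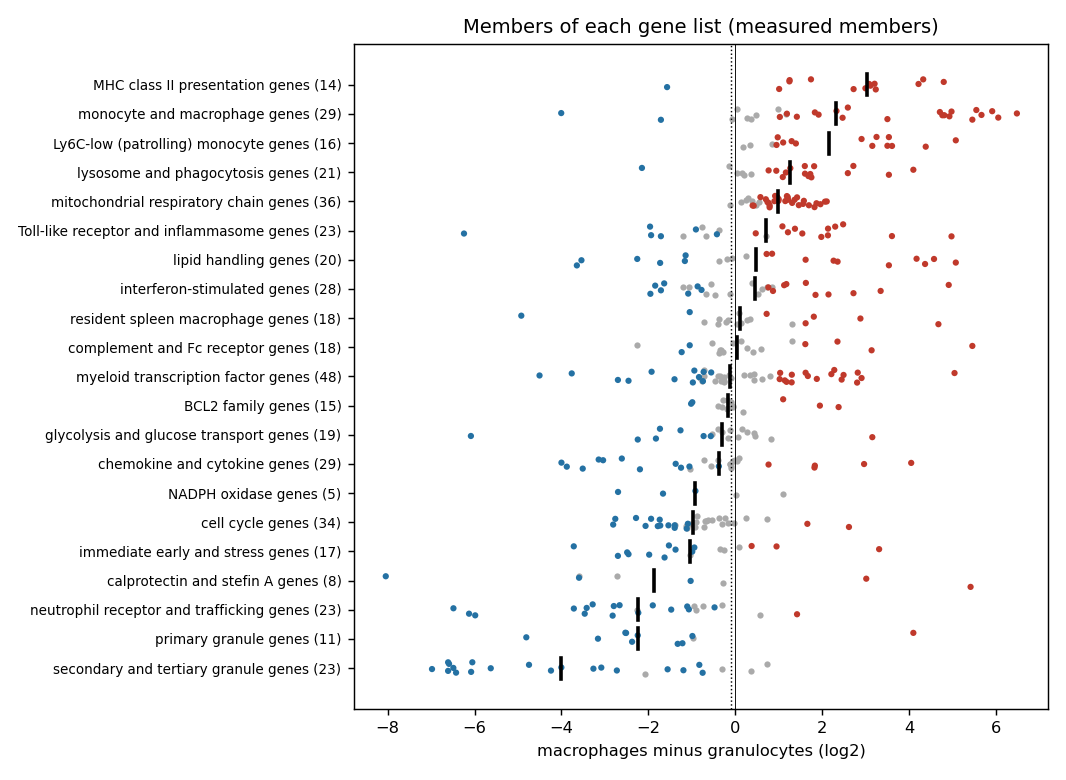
Difference in log2 level, macrophages minus granulocytes (horizontal axis), of each measured member of 21 gene lists, with the number of measured members in brackets; red and blue points are called higher in macrophages and in granulocytes, grey points are not called, black bars are list medians, and the dotted line is the median of all genes, -0.09. Medians run from -4.0 for secondary and tertiary granule genes to 3.04 for MHC class II presentation genes.

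Transcription factors of the myeloid lineages differed in both directions. Of 48 measured, 17 were called higher in macrophages and 12 higher in granulocytes (18.4% and 12.8% of all genes, median -0.13). Irf8, the factor that drives monocyte and dendritic cell fate and limits granulocytes, had levels of 8.89, 9.41 and 9.21 in macrophages and of 6.04, 5.36 and 7.70 in granulocytes, where pool 3 stood highest (6.98-fold, adjusted p = 1.17e-04). A second Irf8 probe set gave a difference of 2.63. In wild-type MDPs the mean Irf8 level was 10.34, above both. Spi1, encoding PU.1, had levels of 8.72, 8.69 and 8.99 against 9.50, 9.39 and 9.17, a 1.47-fold difference towards granulocytes (adjusted p = 0.0159) that was not called without granulocyte pool 1, without macrophage pool 1 or 2, or with array quality weights.

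Cebpa, a factor of early myeloid cells, was 7.05-fold higher in macrophages, with granulocyte levels of 6.46, 7.17 and 7.12. Towards granulocytes, Mxd1, a MAX partner that opposes MYC, was 22.7-fold higher (levels 7.48, 7.16 and 7.13 against 11.94, 11.93 and 11.41). Gfi1, the repressor that neutrophil formation requires, had levels of 8.38, 6.57 and 7.49 in granulocytes and a mean of 3.72 ± 0.46 (SD, n = 3) in macrophages. Gfi1 and Irf8 did not share the order of the granulocyte pools, apart from pool 2 being lowest for both. Cebpd was 3.8-fold higher in granulocytes and Irf5 4.85-fold higher in macrophages, while Cebpb had a difference of -0.15 ± 0.33 that was not called (adjusted p = 0.761).

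Sensing genes split by receptor. Among 23 Toll-like receptor and inflammasome genes, 12 were called higher in macrophages and 6 higher in granulocytes (median 0.70). The shares over all genes were 18.4% and 12.8%. The endosomal nucleic acid receptor genes Tlr7, Tlr8 and Tlr9 had differences of 2.48, 1.98 and 1.21, all called, while Tlr3, also endosomal, had one of 0.70 that was not called (adjusted p = 0.106). Cd180, a TLR4-like surface receptor, had a difference of 3.60 ± 0.33. Naip5, which detects flagellin, was 4.92-fold higher in macrophages. In the other direction, Nlrp3 was 3.9-fold higher in granulocytes (levels 6.91, 7.30 and 7.61 against 8.66, 9.86 and 9.20) and Tlr6 3.83-fold higher. Tlr4, the lipopolysaccharide receptor, had a difference of -1.20 without overlap that was not called (adjusted p = 0.144) but passed with only the 6 spleen arrays in the fit (adjusted p = 0.001).

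Interferon-stimulated genes were split between the cell types. Of 28 measured, 10 were called higher in macrophages and 7 higher in granulocytes (18.4% and 12.8% of all genes, median 0.45). Ifi205 was 30.1-fold higher in macrophages, Gbp3 6.59-fold higher, and Mx1 had levels of 6.86, 7.40 and 7.23 against 3.84, 3.78 and 3.85. Ifit1, Rsad2 and Oasl1, antiviral effector genes, were 3.59-fold, 3.87-fold and 3.11-fold higher in granulocytes. The count higher in granulocytes was 3 without macrophage pool 1 and 2 without granulocyte pool 2. Of 5 measured NADPH oxidase genes, 3 were called higher in granulocytes and 0 higher in macrophages (12.8% and 18.4% of all genes, median -0.92). Hvcn1, the proton channel that sustains the oxidative burst, was 6.49-fold higher, with granulocyte levels of 9.24, 6.98 and 8.05. Cybb, the catalytic gp91phox subunit, had levels of 11.71, 9.25 and 10.29 in granulocytes against 11.30, 11.64 and 11.62 in macrophages, and the groups overlapped (adjusted p = 0.243).

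Most measured genes of the mitochondrial respiratory chain were higher in macrophages. Of 36 measured, 29 were called higher in macrophages, 0 higher in granulocytes and 7 not called, with a median difference of 0.98. The mean level over the 36 genes was 9.60, 9.61 and 9.55 in macrophage pools 1 to 3 and 9.02, 8.15 and 8.52 in granulocyte pools 1 to 3. Ndufs3, a complex I subunit, had levels of 7.78, 7.64 and 7.54 against 5.94, 5.23 and 5.92 (3.89-fold, adjusted p = 7.3e-07). Ndufb5 and Ndufa9, also of complex I, were 4.18-fold and 4.3-fold higher, and Atp5g1, of the ATP synthase, 3.65-fold higher. A second Atp5g1 probe set gave -0.01.

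Glycolysis and glucose transport genes were more often higher in granulocytes, with 7 of 19 called there, at a median of -0.31. Called higher in macrophages was 1, Eno3 (2 without granulocyte pool 1). Of all genes, 12.8% were called higher in granulocytes and 18.4% higher in macrophages. The glucose transporter gene Slc2a1 was 3.33-fold higher in granulocytes and the lactate exporter gene Slc16a3 3.55-fold higher, beside Slc2a3, given above. Hk2, hexokinase 2, had a difference of -0.12 ± 0.15 that was not called. Among 20 lipid handling genes, 10 were called higher in macrophages and 6 higher in granulocytes (18.4% and 12.8% of all genes, median 0.48). The largest difference towards macrophages was that of Fabp4, given above; Lrp1, a lipoprotein receptor gene, was 23.8-fold higher, the phospholipid transfer protein gene Pltp 18-fold higher, and Lpl, lipoprotein lipase, had means of 8.04 ± 0.58 and 3.67 ± 0.08 (SD, n = 3). Towards granulocytes, Alox5, the 5-lipoxygenase of leukotriene synthesis, was 12.5-fold higher (levels 4.59, 4.85 and 5.01 against 8.65, 8.45 and 8.29), and Dgat1, which makes triglyceride, 11.6-fold higher.

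Cell cycle genes differed widely between the granulocyte pools. Of 34 measured, 13 were called higher in granulocytes and 2 higher in macrophages (median -0.98). The mean level of the list was 7.58, 5.66 and 6.54 in granulocyte pools 1 to 3 and 5.86, 5.30 and 5.96 in macrophage pools, so granulocyte pool 2 lay below macrophage pools 1 and 3. Cenpe, a mitotic motor gene, had levels of 7.75, 4.95 and 7.29 in granulocytes against 4.06, 3.51 and 4.14. The count higher in granulocytes was 7 without granulocyte pool 1, 22 without granulocyte pool 2, 6 without macrophage pool 2 and 5 with only the 6 spleen arrays in the fit. Without granulocyte pool 1 the median was -0.39. Ccnd2, cyclin D2, did not follow that order, with levels of 8.59, 9.44 and 9.29 in granulocytes against 6.31, 6.16 and 6.43. Called higher in macrophages were Cdkn1a, the cell cycle inhibitor p21 (6.13-fold), and Ccnd1, cyclin D1 (3.16-fold). In wild-type MDPs the mean level of the list was 8.31 to 8.63, above every spleen pool.

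The 10 genes with the largest SD among granulocyte pools were Xist, Cdkn3, Cpa6, Cdca3, Cenpj, Tbc1d24, Cenpf, Aurka, Egr1 and Reck. Cdkn3, Cdca3, Cenpj, Cenpf and Aurka act in cell division. Cdca3 had levels of 7.68, 3.99 and 5.74 in granulocyte pools 1 to 3, and Aurka, a mitotic kinase, of 6.95, 3.40 and 5.25. Both were highest in pool 1 and lowest in pool 2, the order also seen for Cpa6 (8.09, 4.26 and 7.38), Reck (7.78, 4.33 and 6.47). Egr1, an immediate early gene, ran differently, with 6.14, 8.32 and 9.66.

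**Figure D5:**
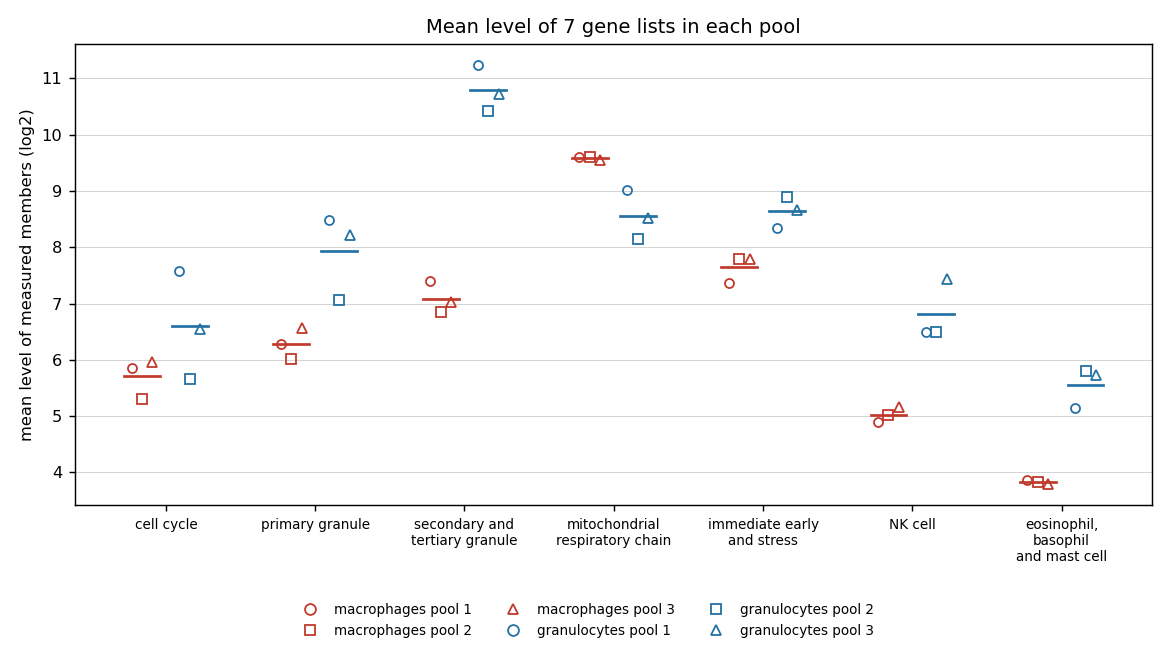
Mean log2 level of the measured members of 7 gene lists (vertical axis) in each macrophage pool (red) and granulocyte pool (blue); symbols mark pools 1 to 3 and horizontal bars the group means. Granulocyte pool 1 is highest and pool 2 lowest for cell cycle, granule and respiratory chain genes, and granulocyte pool 3 is highest for NK-cell markers.

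Immediate early and stress genes were mostly higher in granulocytes, with 10 of 17 called there and 3 called higher in macrophages (median -1.05). Ier3 was 13.1-fold higher in granulocytes (levels 5.07, 5.00 and 5.00 against 8.89, 8.93 and 8.41), Dusp1, a phosphatase that ends MAP kinase signalling, 5.61-fold higher, and Fos 5.49-fold higher. The 3 called higher in macrophages were chaperone genes. Hspa1b had levels of 6.10, 9.57 and 9.02 in macrophages against 5.38, 4.83 and 4.55, so macrophage pool 1 lay near the granulocytes; Hspa1b was not called without macrophage pool 2 or 3 or granulocyte pool 2 or 3, and its probe set may also read its near-identical neighbour. The count of 3 was 0 without granulocyte pool 2 and 1 without macrophage pool 2 or 3. Of 15 BCL2 family genes, 3 were called higher in macrophages and 2 higher in granulocytes (median -0.17), shares near those of all genes (18.4% and 12.8%). Mcl1, a survival factor of neutrophils, was 2.02-fold higher in granulocytes, and Bcl2a1a 5.19-fold higher and Bak1 3.85-fold higher in macrophages.

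Marker genes of other cell types were read in both gates. NK-cell markers stood higher in the granulocyte gate: 10 of 13 were called higher there and 1 higher in macrophages (0 without granulocyte pool 2), at a median of -2.20. Their mean level was 4.90, 5.01 and 5.17 in macrophage pools and 6.50, 6.49 and 7.43 in granulocyte pools 1 to 3, and 12 of 13 were above the array median in each granulocyte pool. Gzma, granzyme A, had levels of 4.28, 5.38 and 5.89 in macrophages and of 10.51, 10.50 and 11.61 in granulocytes (51.7-fold, adjusted p = 1.82e-04). Tbx21, the factor T-bet, had levels of 5.68, 6.16 and 8.23 in granulocytes and stood below the array medians in macrophages. Granulocyte pool 3 was the highest for both, as it was for Ccl5, which NK cells also make, and for Irf8. The part of these markers in those results was not tested. S1pr5, a sphingosine 1-phosphate receptor that Ly6C-low monocytes share with NK cells, was the member called higher in macrophages (4.25-fold, granulocyte levels 6.96, 6.45 and 8.57).

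Markers of eosinophils, basophils and mast cells gave 6 of 13 called higher in granulocytes and 0 higher in macrophages (median -0.55). Of all genes, 12.8% and 18.4% were called in these directions. Siglecf, a lectin of eosinophils, had levels of 3.40, 3.64 and 3.62 in macrophages and of 7.17, 8.42 and 8.49 in granulocytes, and Alox15, 12/15-lipoxygenase, of 7.52, 9.10 and 9.75 in granulocytes. Ccr3, the eotaxin receptor, had levels of 4.72, 6.71 and 6.86 in granulocytes. Granulocyte pool 1 was lowest for all 3. Epx, eosinophil peroxidase, was at 4.28, 4.66 and 4.51 in granulocytes, near the array medians, and the mast cell and basophil genes Fcer1a and Cpa3 had means of 2.71 and 2.86, below them. The list's mean level was 5.15, 5.80 and 5.72 in granulocyte pools and 3.79 to 3.86 in macrophage pools. The labels' granulocyte gate names no marker that separates neutrophils from eosinophils, and the part of these markers in the granulocyte results was not tested.

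Neutrophil markers were high in every granulocyte pool, with a list mean of 11.60, 11.03 and 11.50 over 11 genes, of which 9 were called higher there and 0 higher in macrophages. In macrophage pools 1 to 3 the mean of this list was 7.42, 6.15 and 6.98, and the granule gene Camp had levels of 8.49, 5.29 and 6.97, the same order as Ngp, Ltf and S100a8. The part of neutrophil RNA in the macrophage pools was not tested. T-cell markers gave 3 of 11 called higher in granulocytes and 0 in macrophages (12.8% and 18.4% of all genes). Their list means were 3.98 to 4.09 in macrophage pools and 4.35 to 4.61 in granulocyte pools. B-cell markers gave 5 of 11 called higher in granulocytes (3 without macrophage pool 1 or granulocyte pool 3) and 1, Cd79b, higher in macrophages (0 without macrophage pool 3 or granulocyte pool 1, and 2 without granulocyte pool 2 or 3), with list means of 4.20 to 4.32 and 4.09 to 4.69.

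The other marker lists held few calls, beside 18.4% of all genes called higher in macrophages and 12.8% higher in granulocytes. Every list count of 0 in a direction given here was also 0 at an unadjusted limma p under 0.05, apart from the erythroid list. Plasmacytoid dendritic cell markers gave 1 of 7 called higher in macrophages, Tcf4, at 6.71-fold, and 0 higher in granulocytes. Erythroid markers gave 0 of 8 called in either direction by limma (1 higher in granulocytes without granulocyte pool 1), with 1 of them at an unadjusted p under 0.05. Megakaryocyte and platelet markers gave 1 of 8 called higher in granulocytes, Gp9 (adjusted p = 0.0496), and 0 in 5 of the 6 fits that left out a pool, the exception being that without granulocyte pool 1. Stroma and endothelium markers gave 1 of 8, Col1a1, and stem and progenitor markers 1 of 8, Myb (2 without granulocyte pool 2), both higher in granulocytes. Their list means lay between 4.06 and 4.67 for stem and progenitor markers and between 4.19 and 4.58 for stroma and endothelium markers in the 6 spleen arrays.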

How the data were processed

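Gene expression in spleen macrophages (3 pools), spleen granulocytes (3 pools) and the progenitor groups of the same series was measured on Affymetrix perfect-match arrays from biotin-labelled cRNA. The deposited values are log2 expression values that the authors made with Affymetrix Expression Console and RMA, per the submitters' processing notes; their versions and the genome build are not given in these sources, nor is it stated if the 17 arrays shared 1 RMA run. RMA subtracts background, forces arrays to a common distribution and summarises probes, which compresses differences of low genes. The number of arrays limits the precision.

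Of 45037 probe sets, 28898 had 1 gene symbol in the platform annotation, 551 several and 15588 none; 28689 matched a RefSeq gene by Entrez ID. Each of 17097 genes was represented by its probe set with the highest mean over all 17 arrays (7180 genes had several). limma 3.58.1 (R 4.3.3; lmFit, eBayes) was fitted to 6 group means over all 17 arrays, which share one estimate of spread (11 residual degrees of freedom), and macrophages were contrasted with granulocytes, with Benjamini-Hochberg adjustment over 17097 genes and a threshold of 0.05. On simulated data the fit recovered 65% of changes of 1 log2 unit and 95% of changes of 2, with 4 unchanged genes called. The simulated noise was independent and of equal size in every group, unlike the real granulocyte pools, which spread more than the macrophage pools. These rates therefore cannot be carried over to the real arrays.

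The comparison, its 33 gene lists (521 of 598 listed genes measured, the rest not analysed here) and the named genes were chosen with earlier results of these data known, so a list's direction is not independent evidence. Named genes were Irf8, Spi1 and the sort-gate genes, the 15 largest called differences without overlap in each direction, up to 4 called members per list and direction (the 2 with the smallest p where none was called) and the 10 largest granulocyte SDs; other list members named were picked after their values were seen. Alternatives were the 6 spleen arrays alone with and without a replicate block, trend and robust eBayes, array weights, other probe-set rules, a low-signal filter, quantile normalization again, median centring, a 2-fold minimum and leaving out each pool.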

Additional observations from a re-analysis of the deposited data

How the results depend on the processing

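Beside the 5337 genes called, the 9 other fits over all pools called 4500 to 5879 genes each, and shared 4006 (quantile normalization again) to 5152 (all probe sets) of the 5337. The fits that left out 1 pool called 4058 (without macrophage pool 2) to 5719 (without granulocyte pool 1), and 3565 of the 5337 calls held in all 6 of them. Requiring at least a 2-fold difference left 3202. Array quality weights over the 6 spleen arrays ranged from 1.46 to 2.18 for macrophage pools and from 0.37 to 0.88 for granulocyte pools. The low-signal filter tested 10055 genes and called 4752. In 14 of 15 fits no call reversed direction; with the mean of a gene's probe sets 1 did. Of the 157 called genes among the 181 named by rule, 20 lost the call in at least 1 fit, and 12 of the others gained one. Correlations of deviations between macrophage and granulocyte pools of the same number were 0.003, 0.087 and 0.000. None passed 0.1, the limit set for reading pools as paired, and the main fit has no replicate block. The sex-linked genes Xist and Eif2s3y, given below, kept the same order of pools in both cell types. Whether pools of the same number came from the same mice is therefore not settled. With only the 6 spleen arrays, 5108 genes were called without a replicate block and 4500 with it, and Spi1, called without it, was not called with it. With 3 pools of each type, the smaller differences are the ones the arrays limit.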

Other observations

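Levels of the sex-linked genes Xist and Eif2s3y followed the pool number in both cell types, and those of Kdm5d did so in granulocytes only. Xist, transcribed from the inactive X chromosome of females, had log2 levels of 5.01, 9.51 and 10.45 in macrophage pools 1 to 3 and of 5.31, 8.65 and 9.29 in granulocyte pools 1 to 3. Eif2s3y, a Y-linked gene, had levels of 8.68, 7.98 and 6.60 in macrophage pools and of 8.70, 7.88 and 7.48 in granulocyte pools. In both cell types pool 1 was lowest in Xist and highest in Eif2s3y, and pool 3 the reverse. Another Y-linked gene, Kdm5d, had levels of 7.62, 7.68 and 6.43 and of 6.90, 6.33 and 5.32. These genes were picked after their values were seen. The labels give neither the sex of the mice nor whether pools of the same number shared mice.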
